A study of Mus musculus with 31 samples.

Results

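Cholesterol metabolism was followed through 32 genes in Panc02 cells, a mouse pancreatic adenocarcinoma line, in RNA sequencing of 31 samples. The genes are 19 enzymes of cholesterol and isoprenoid synthesis and 13 genes that control the pathway or cholesterol uptake, or that move, store and export cholesterol. No lipoprotein receptor is among the 13. The rule that picks them names the genes and uses no measured value, but it was set with earlier results of these data known. The study had already reported from these data that cholesterol synthesis genes changed with culture and with genotype. The numbers of enzymes called below are therefore no independent support for a change of the pathway. Each gene was found as a row in 3 deposited count tables that list 55487, 56980 and 56941 genes. Counts were high enough to test 31 of the 32 in the conditioned media samples, 31 in the 2D and 3D samples and 32 in the rescue samples. The gene left untested was Mylip.

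The conditioned media samples were Panc02 spheroids in Matrigel that received control medium (Ctrl), medium conditioned by untreated bone marrow-derived macrophages (M0-CM), or medium conditioned by macrophages that had received IFNγ and then LPS (M1-CM), with 3 samples in each group. The 2D and 3D samples were WT and Cxcl5-/- Panc02 cells grown on plastic (2D) or as spheroids in Matrigel (3D), with 3 samples in each of 4 groups. Cxcl5 encodes a chemokine, and the Cxcl5-/- cells were made with a lentiviral Cas9 vector carrying 1 guide and selected with puromycin. The rescue samples were 3D-cultured WT and Cxcl5-/- cells, with 2 samples each, and Cxcl5-/- cells that overexpressed Hif1a (Hif1aOE Cxcl5-/-) or Myc (MycOE Cxcl5-/-) from a retroviral vector, with 3 samples each. The Hif1a construct encodes a stabilized mutant. Whether the cells of a genotype came from a clone is not given in the sources used here, so each genotype stands for 1 line. All media contained serum, which brings in cholesterol.

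Cells build cholesterol from acetyl-CoA through mevalonate, farnesyl pyrophosphate, squalene and lanosterol. When sterols in the endoplasmic reticulum fall, the escort protein SCAP carries the SREBP precursors to the Golgi, where they are cut into transcription factors that switch on the genes of synthesis and uptake, and when sterols are plentiful INSIG proteins hold SCAP back. Oxysterols, which form when cholesterol accumulates, activate the LXR receptors, and these raise the exporters Abca1 and Abcg1 and the ubiquitin ligase Mylip, which removes lipoprotein receptors.

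Promoter sequence was read for the members to show where the letters bound by these and other factors lie. RefSeq windows on GRCm38.p6, from 250 bases before to 50 after the gene start and so of 300 bases, were at hand for 16 of the 19 enzymes and 10 of the 13 control and transport genes. No window was at hand for Fdps, Fdft1, Sqle, Abcg1, Npc1 and Stard4, so these were not searched. Letters were searched on both strands. The NF-Y motif CCAAT, whose factor works beside SREBP at many sterol genes, was in 14 of the 16 enzyme windows (87.5%) and 6 of the 10 control and transport windows (60%), against 37.9% of all 27025 windows. The SREBP motif TCACNCCAC was in 1 enzyme window, that of Hmgcs1 (6.25%), and in 0 of the 10, against 1.22% of all. The E-box CACGTG, a motif of MYC and of the SREBPs among others, was in 2 enzyme windows (12.5%), those of Hsd17b7 and Sc5d, and in 3 of the 10 (30%), those of Insig1, Abca1 and Scap, against 7.24% of all. The core ACGTG, found in sites of HIF1, was in 19.7% of all windows, and in the members it was met inside these E-boxes and at another 2 places in the window of Insig1, starting at positions -21 and 45 from the gene start. A match of letters is a description and not a site shown to be bound.

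The 250 bases before the start are printed for 6 members that the results turn on, chosen after their values were seen from the windows that hold no annotated exon base. They are read 5′ to 3′ on the strand of the gene, and capitals mark the matches to the motifs named above, of which CCAAT reads backwards as ATTGG where it lies on the other strand. The windows are chr13:119690101-119690350 (plus strand) for Hmgcs1, chr3:89454291-89454540 (plus) for Pmvk, chr8:122443423-122443672 (minus) for Mvd, chr9:42264301-42264550 (minus) for Sc5d, chr1:121332590-121332839 (minus) for Insig2 and chr4:53159896-53160145 (minus) for Abca1.
Hmgcs1: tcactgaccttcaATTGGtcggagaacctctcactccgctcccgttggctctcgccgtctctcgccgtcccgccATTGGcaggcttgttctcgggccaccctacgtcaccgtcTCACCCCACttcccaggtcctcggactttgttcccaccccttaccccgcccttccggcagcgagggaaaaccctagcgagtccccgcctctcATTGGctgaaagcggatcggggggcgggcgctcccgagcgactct
Pmvk: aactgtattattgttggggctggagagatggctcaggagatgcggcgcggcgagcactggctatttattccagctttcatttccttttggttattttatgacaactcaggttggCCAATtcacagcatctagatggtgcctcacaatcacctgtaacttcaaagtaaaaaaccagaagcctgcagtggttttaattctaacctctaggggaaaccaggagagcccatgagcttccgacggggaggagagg
Mvd: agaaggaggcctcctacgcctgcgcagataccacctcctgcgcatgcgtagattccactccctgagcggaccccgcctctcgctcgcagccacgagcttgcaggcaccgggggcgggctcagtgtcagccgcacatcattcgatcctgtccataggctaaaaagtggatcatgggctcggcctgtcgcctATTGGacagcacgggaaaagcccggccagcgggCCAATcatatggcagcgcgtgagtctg
Sc5d: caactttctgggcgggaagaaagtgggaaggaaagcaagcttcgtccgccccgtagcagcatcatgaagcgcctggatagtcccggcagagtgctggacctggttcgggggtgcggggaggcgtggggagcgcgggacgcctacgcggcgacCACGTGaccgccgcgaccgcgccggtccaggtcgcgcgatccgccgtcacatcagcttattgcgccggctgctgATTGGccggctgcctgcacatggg
Insig2: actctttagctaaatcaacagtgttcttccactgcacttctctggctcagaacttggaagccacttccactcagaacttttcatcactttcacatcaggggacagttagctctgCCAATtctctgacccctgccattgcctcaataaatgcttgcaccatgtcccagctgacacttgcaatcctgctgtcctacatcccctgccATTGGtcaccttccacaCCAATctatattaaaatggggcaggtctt
Abca1: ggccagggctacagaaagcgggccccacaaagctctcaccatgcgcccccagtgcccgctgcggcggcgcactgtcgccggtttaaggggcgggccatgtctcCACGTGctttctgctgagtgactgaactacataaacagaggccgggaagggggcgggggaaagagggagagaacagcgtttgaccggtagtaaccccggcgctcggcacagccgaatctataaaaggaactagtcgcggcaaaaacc

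Total counts per sample ran from 41542533 to 78498230. Levels below are CPM, counts scaled to a common library size after TMM, which evens out composition between libraries, and they are not divided by gene length, so a level is compared only within a gene. Differences are log2 fold changes from edgeR's quasi-likelihood test, and a gene is called higher or lower when its Benjamini-Hochberg adjusted p over all genes tested is under 0.05. The study's methods speak of biological replicates and repeated experiments in general but do not tie them to the sequenced samples, so p-values measure only the spread between these samples, which may be technical. In bulk RNA, fewer cells of a type and less RNA per cell cannot be told apart.

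RNA levels of the targeted genes were read first, beside the labels. In 2D, Cxcl5 stood at 45.6, 47.3 and 49.1 CPM in WT and 37.4, 32.7 and 32.8 in Cxcl5-/- cells, and in the rescue samples at 64.2 and 67.7 in WT and 36.6 and 40.2 in Cxcl5-/- cells. In 3D it was 28.5, 24.5 and 28.04 in WT and 65.5, 40.9 and 45.4 in the samples labelled Cxcl5-/-, higher in each of the 3. These are called the 3D libraries labelled Cxcl5-/- throughout. Cxcl5 RNA was thus present in every group labelled Cxcl5-/-, and its level alone does not show which samples carry the edit. The study checked the knockout by immunoblot for CXCL5 protein, in 3D cells too, and protein is not measured here. Whether the guide's edit was present in any of these libraries was not tested. Hif1a was 144 and 134 CPM in Cxcl5-/-, 258, 296 and 243 in Hif1aOE Cxcl5-/- and 304 and 324 in WT rescue samples. Myc was 22.3 and 20.02 CPM in Cxcl5-/- and 548, 525 and 397 in MycOE Cxcl5-/- cells. The summed level of 7 markers of the line (4 keratins, Epcam, Cdh1 and Vim) moved with the groups. It was 3219 to 3595 CPM in 2D WT, 1987 to 2213 in 2D Cxcl5-/-, 4362 to 5145 in 3D WT and 829 to 995 in the 3D libraries labelled Cxcl5-/-, and 4150 to 4217 in WT, 816 to 827 in Cxcl5-/-, 1417 to 1592 in Hif1aOE and 1216 to 1304 in MycOE rescue samples, and Epcam was at 0 in all groups but 3D WT and rescue WT. The sum was lower in Cxcl5-/- than in WT in 2D, in 3D and in the rescue samples, without overlap. Not every marker followed it. Of the 5 tested in the 2D and 3D table, 1 was called higher and 4 lower by genotype in 3D (19.7% and 25.3% of all genes). In 2D 1 was higher and 3 lower (3.86% and 3.17%). Of the 6 tested in the rescue samples, 0 were higher and 4 lower (17.6% and 24.3%). That of 7 macrophage markers was 28 to 76.7 CPM over all libraries, with Adgre1 and Itgam at or near 0. Of the 5 macrophage markers tested, 4 were called higher and 0 lower with 3D culture in WT (22.2% and 22% of all genes). In the 3D libraries labelled Cxcl5-/- against 3D WT, 1 was called higher and 0 lower (19.7% and 25.3%). Of the 6 tested in rescue Cxcl5-/- against WT, 1 was called higher and 3 lower (17.6% and 24.3%). The summed level of 3 endothelial markers was low in the rescue samples, at 1.65 to 3.17 CPM in WT and 0 to 0.0406 in Cxcl5-/-. It was 0.199 to 0.979 in Hif1aOE and 0.282 to 0.508 in MycOE rescue samples. The summed level of 4 fibroblast markers also moved, from 24.7 to 26.6 CPM in 2D WT, 10.2 to 11.8 in 2D Cxcl5-/-, 67.5 to 68 in 3D WT and 201 to 233 in the 3D libraries labelled Cxcl5-/-, and from 20.2 to 22.8 in WT, 183 to 184 in Cxcl5-/-, 25.6 to 41 in Hif1aOE and 146 to 169 in MycOE rescue samples. Of the 4 fibroblast markers, 1 was called higher and 2 lower in the 3D libraries labelled Cxcl5-/- against 3D WT (19.7% and 25.3% of all genes). Their median log2 fold change there was -0.83, so the rise of the sum does not stand for most of the list. In rescue Cxcl5-/- against WT, 3 were called higher and 0 lower (17.6% and 24.3%). The part of all these markers in the results below was not tested.

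In WT cells the synthesis pathway was higher in 3D than in 2D almost from end to end. In that comparison 17 of the 19 enzymes were called higher and 0 lower, where 22.2% of all genes were called higher and 22% lower, and the median log2 fold change of the 19 was 1.08, with 0.00 over all genes. The control and transport genes were split, with 7 called higher and 2 lower of 12 tested. None of these 26 calls was lost on leaving out any library. In the 3D libraries labelled Cxcl5-/- 17 enzymes were called lower than in 3D WT and 0 higher (25.3% of all genes lower, 19.7% higher), with a median of -1.12 against -0.04 over all genes, and 2 control and transport genes were called higher and 6 lower. In 2D the genotypes differed little: 1 enzyme was called higher and 1 lower (3.86% and 3.17% of all genes), the median was 0.03, and 3 control and transport genes were called lower.

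The difference between the genotype effect in 3D and that in 2D was tested directly as an interaction. For 17 of 19 enzymes it was below 0 and passed the test, with 0 above (16.1% of all genes below, 11.1% above), and its median was -1.07, against -0.05 over all genes. Of the control and transport genes, 2 passed above 0 and 5 below. Between the 3D libraries labelled Cxcl5-/- and 2D Cxcl5-/-, 6 enzymes were called higher and 3 lower (28.7% and 28.2% of all genes) and the enzyme median was 0.02. These comparisons share samples, so they are not independent of each other. Scaling by library totals moved the median of all genes to -0.21 in 3D WT against 2D WT and to 0.35 in the 3D libraries labelled Cxcl5-/- against 3D WT, and the enzyme medians to 0.87 and -0.73. Measured from the median of all genes, the enzymes stood at -1.08 in the genotype comparison with either scaling.

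**Figure D1:**
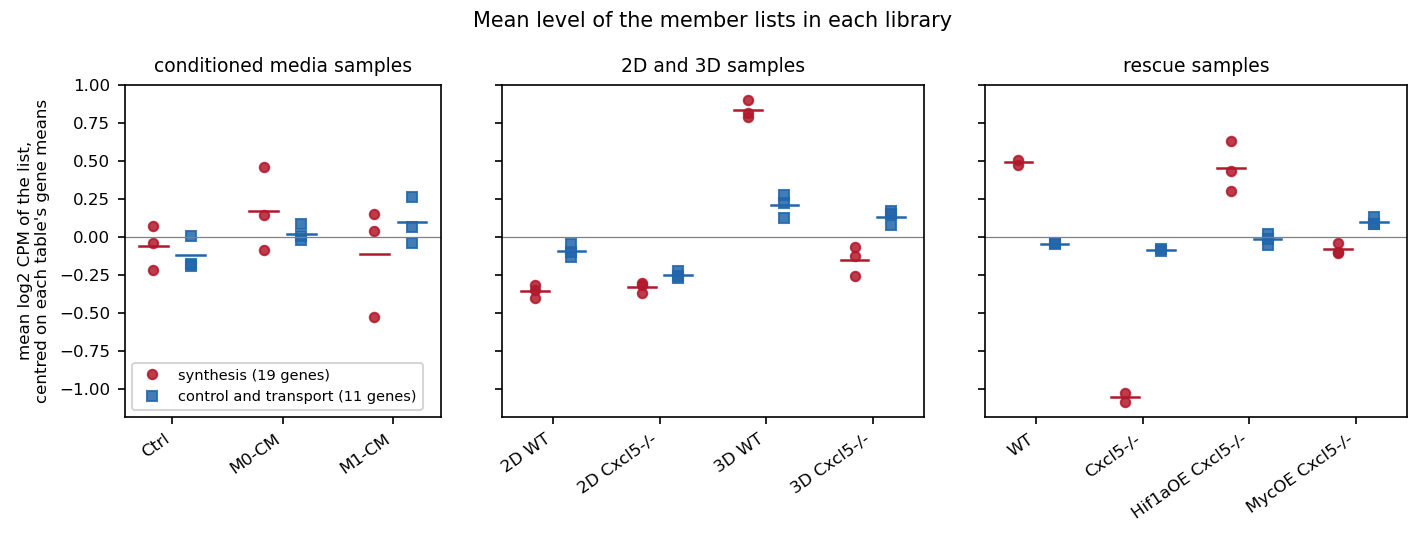
Mean level of the 19 synthesis enzymes and of 11 of the 13 control and transport genes (without Mylip and Abcg1) in each library, as log2(CPM + 0.5) centred on each gene's mean over its table, with 1 point per library. Enzyme levels were between 0.79 and 0.91 in 3D WT, against -0.26 to -0.07 in the 3D libraries labelled Cxcl5-/- and -0.40 to -0.31 in both 2D genotypes, and in the rescue samples they were lowest in Cxcl5-/- (-1.09 and -1.03).

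The rescue samples gave the genotype comparison again in other libraries, with no sample in common with the 2D and 3D table. There 18 of 19 enzymes were called lower in Cxcl5-/- than in WT and 0 higher (24.3% of all genes lower, 17.6% higher). The enzyme median was -1.73, against -0.30 over all genes. Of the 13 control and transport genes, 3 were called higher and 6 lower, and the 6 include Mylip, whose counts were near 0. With Hif1a overexpressed, 17 enzymes were called higher than in Cxcl5-/- and 0 lower (20.5% and 15% of all genes), with a median of 1.78 against 0.16 over all genes. With Myc overexpressed, 17 were called higher and 1 lower (21.6% and 18%), with a median of 1.11 against 0.11. Scaling by library totals moved the all-gene medians of these last 2 comparisons to 0.00 and -0.11 and the enzyme medians to 1.55 and 0.78.

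Set against WT, the enzymes of Hif1aOE Cxcl5-/- cells lay on both sides, with 4 called higher and 3 lower (13.9% and 10.3% of all genes) and a median of -0.06 against -0.10 over all genes. Those of MycOE Cxcl5-/- cells were mostly below WT, with 1 called higher and 15 lower (17.1% and 14.7%) and a median of -0.52 against -0.17. In the direct test of MycOE against Hif1aOE Cxcl5-/- cells, 13 enzymes were called lower and 0 higher (9.73% and 9.54%), with a median of -0.67 against -0.01. The counts against WT rest on few libraries. Leaving out 1 library gave between 2 and 10 enzymes called for Hif1aOE and between 11 and 16 for MycOE, and the DESeq2 Wald test called 11 for Hif1aOE, 2 higher and 9 lower. All these comparisons share the WT, Cxcl5-/- or overexpressing samples.

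**Figure D2:**
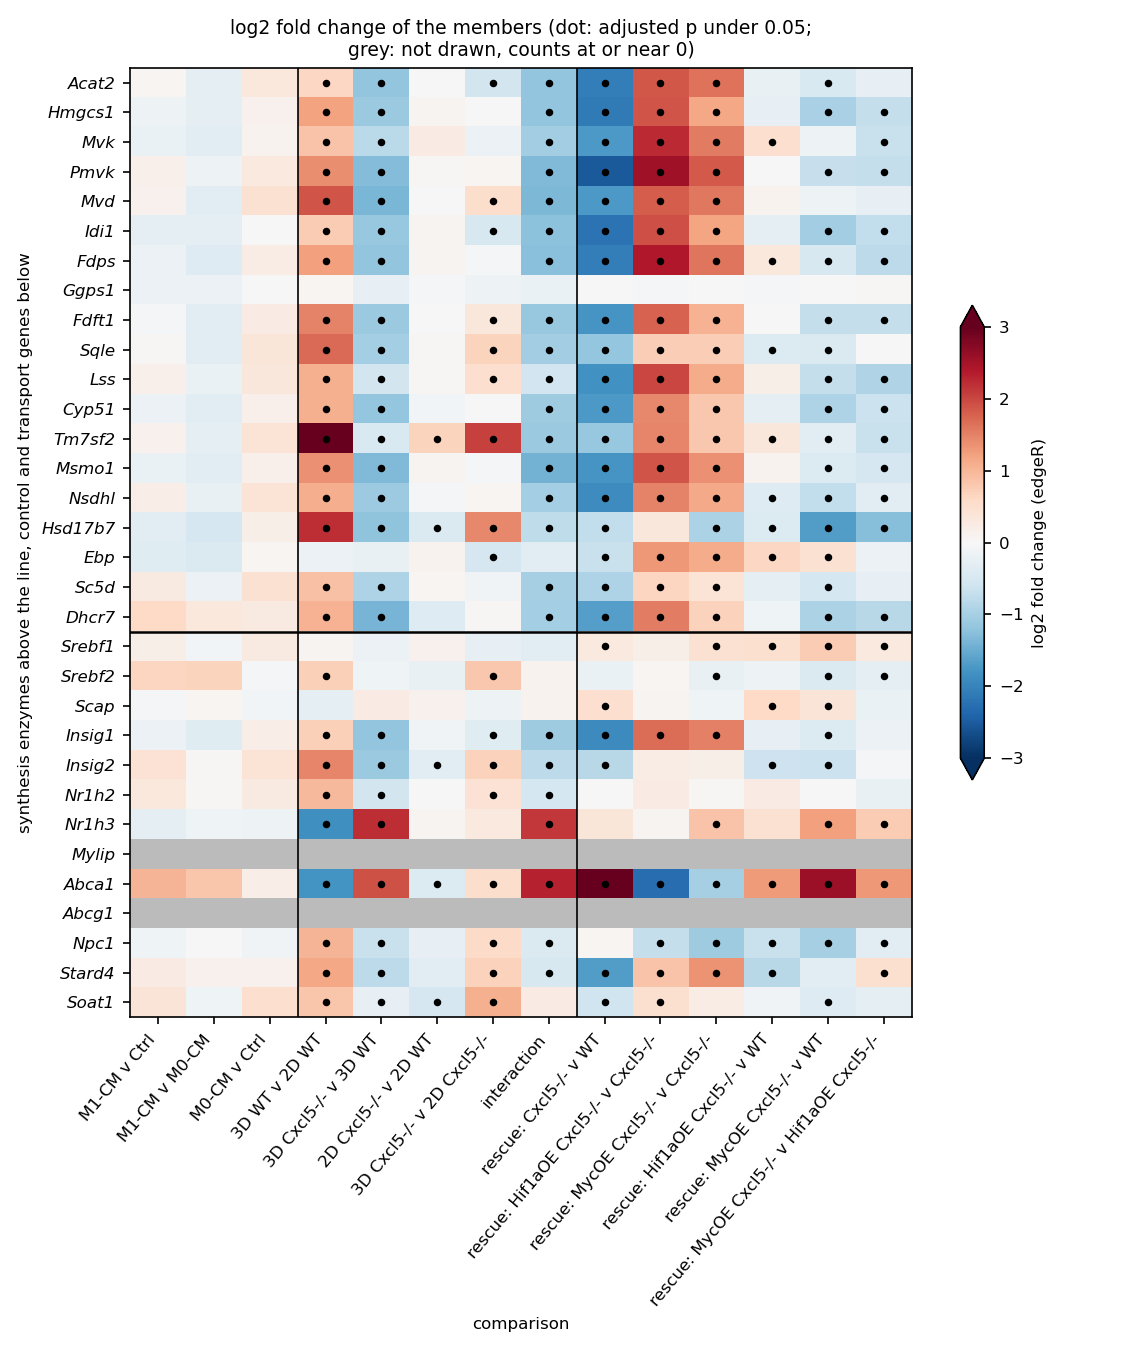
Log2 fold changes of the 32 members (rows) in the 14 comparisons (columns), as colour, with a mark on those that passed edgeR's test and grey for genes not tested or resting on counts near 0. In the columns of 3D WT against 2D WT, of genotype in 3D, of the interaction, of rescue genotype and of either factor against Cxcl5-/-, 17 or 18 of the 19 enzymes were called one way. The exceptions there are Ggps1, called in 0 of the 14 columns, Ebp, not called in the first 3 of these, and Hsd17b7, not called with Hif1a and called lower with Myc.

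The mevalonate steps carried some of the largest changes. Acat2, which joins acetyl-CoA units at the entry of the pathway, was 162, 154 and 166 CPM in 2D WT, 269, 241 and 227 in 3D-cultured WT and 115, 93.5 and 115 in the 3D libraries labelled Cxcl5-/-. Its 3D WT samples were the highest and those labelled 3D Cxcl5-/- the lowest, with no overlap, and the genotype difference in 3D was -1.19 ± 0.10 (SE, adjusted p = 5.47e-07). In the rescue samples it was 161 and 155 in WT, 36.5 and 38.2 in Cxcl5-/-, 156, 133 and 119 in Hif1aOE and 114, 105 and 124 in MycOE Cxcl5-/- cells. Both Cxcl5-/- samples lay far below all others, and the log2 fold change against WT was -2.08 ± 0.13 (SE, adjusted p = 5.93e-07).

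Hmgcs1, which makes HMG-CoA, had the only SREBP match among the 26 member windows read. It was 251, 263 and 273 CPM in 2D WT, 283, 279 and 267 in 2D Cxcl5-/-, 562, 681 and 569 in 3D WT and 282, 274 and 284 in the 3D libraries labelled Cxcl5-/-. The 3D WT samples stood alone above the other 9, which lay close together. The log2 fold change was 1.202 ± 0.09 (SE, adjusted p = 1.09e-07) for 3D against 2D in WT and -1.11 ± 0.09 (SE, adjusted p = 2.86e-07) for genotype in 3D. In the rescue samples Hmgcs1 was 509 and 489.5 CPM in WT, 108 and 119 in Cxcl5-/-, 514, 373 and 381 in Hif1aOE and 239, 256 and 273 in MycOE Cxcl5-/- cells. The Hif1aOE samples fell on both sides of WT, and the MycOE samples lay between Cxcl5-/- and Hif1aOE without overlap. Against Cxcl5-/- the log2 fold change was 1.89 ± 0.14 (SE, adjusted p = 2.59e-06) with Hif1a and 1.17 ± 0.14 (SE, adjusted p = 4.11e-05) with Myc, and MycOE against Hif1aOE gave -0.72 ± 0.12 (SE, adjusted p = 0.00128).

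The 2 kinases and the decarboxylase that follow, Mvk, Pmvk and Mvd, moved the same way. Pmvk, the phosphomevalonate kinase, had the largest fall of any enzyme in the rescue samples, from 56.2 and 52.8 CPM in WT to 8.86 and 10.01 in Cxcl5-/-, or -2.53 ± 0.15 (SE, adjusted p = 4.78e-07) on the log2 scale. It was 60.7, 61.04 and 44.5 in Hif1aOE and 32.99, 35.3 and 33.4 in MycOE Cxcl5-/- cells. The Hif1aOE samples spanned the WT range, and all 3 MycOE samples lay below it. Against Cxcl5-/- these were rises of 2.55 ± 0.15 (SE, adjusted p = 4.52e-07) and 1.85 ± 0.14 (SE, adjusted p = 1.95e-06). In the other table Pmvk was 69.6, 71.6 and 58.6 in 3D WT and 31.2, 25.1 and 24.95 in the 3D libraries labelled Cxcl5-/-, a difference of -1.30 ± 0.11 (SE, adjusted p = 4.61e-07). Those libraries lay close to 2D WT, which was 24.6, 24.4 and 26.7.

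Mvd, which removes carbon dioxide to form isopentenyl pyrophosphate, was 32.4, 27.4 and 33.6 CPM in 2D WT, 132, 103 and 109 in 3D-cultured WT and 47.7, 41.4 and 44.5 in the 3D libraries labelled Cxcl5-/-, with log2 fold changes of 1.88 ± 0.11 (SE, adjusted p = 1.44e-08) and -1.37 ± 0.11 (SE, adjusted p = 2.83e-07). The last group lay between the other two without overlap. Mvk, mevalonate kinase, was 46.2 and 44.04 in WT, 13.03 and 14.4 in Cxcl5-/- and 71.4, 64.5 and 56.9 in Hif1aOE rescue samples. All Hif1aOE samples exceeded WT, and the log2 fold change against Cxcl5-/- was 2.23 ± 0.11 (SE, adjusted p = 1.83e-07) and against WT 0.51 ± 0.10 (SE, adjusted p = 0.0048).

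Of the isoprenoid enzymes, Idi1 and Fdps moved and Ggps1 did not pass the test in any comparison. Idi1, which isomerises isopentenyl pyrophosphate, was 92.4, 99.6 and 98.2 CPM in 2D WT, 115, 98.4 and 94.7 in 2D Cxcl5-/-, 154, 180 and 155 in 3D WT and 79.4, 65.4 and 75.9 in the 3D libraries labelled Cxcl5-/-. The last group was below all 2D samples, and its log2 fold change was -1.15 ± 0.10 (SE, adjusted p = 1.12e-06) against 3D WT and -0.48 ± 0.10 (SE, adjusted p = 0.00111) against 2D Cxcl5-/-. In the rescue samples Idi1 was 142 and 141 in WT, 28.8 and 32.4 in Cxcl5-/-, 143, 108 and 97 in Hif1aOE and 67.7, 67.5 and 72 in MycOE Cxcl5-/- cells. The MycOE samples stayed below every WT and Hif1aOE sample, by -1.04 ± 0.14 (SE, adjusted p = 0.000198) against WT. Fdps, farnesyl pyrophosphate synthase, was 249 and 254 in WT, 55.2 and 64.3 in Cxcl5-/-, 350.4, 313 and 278 in Hif1aOE and 186, 176 and 183 in MycOE Cxcl5-/- cells, and its fall in Cxcl5-/- was -2.07 ± 0.12 (SE, adjusted p = 3.5e-07). All 3 Hif1aOE samples were above WT and all 3 MycOE samples below it, and MycOE against Hif1aOE gave -0.79 ± 0.09 (SE, adjusted p = 0.000127).

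Ggps1 makes geranylgeranyl pyrophosphate, which leads to protein prenylation and away from sterols. It was 72.2, 66.9 and 78.2 CPM in 3D WT and 72.01, 54.03 and 57.1 in the 3D libraries labelled Cxcl5-/-, and 61.8 and 66.4 in WT, 60.9 and 65.9 in Cxcl5-/-, 63.7, 62.9 and 57.9 in Hif1aOE and 62.9, 64.8 and 61.8 in MycOE rescue samples. These groups overlapped, and over all 14 comparisons its log2 fold change ran from -0.25 to 0.05. Its window holds 3 CCAAT matches, as many as that of Msmo1.

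At the squalene steps, Sqle, the oxygen-requiring squalene epoxidase, was 177, 192 and 194 CPM in 2D WT, 194, 195 and 184 in 2D Cxcl5-/-, 653, 567 and 605 in 3D WT and 285, 291 and 328 in the 3D libraries labelled Cxcl5-/-. The 3D WT samples were highest, the 3D libraries labelled Cxcl5-/- came next, and both stood clear of 2D. The log2 fold change was 1.70 ± 0.09 (SE, adjusted p = 5.05e-09) for 3D against 2D in WT and -1.01 ± 0.09 (SE, adjusted p = 6.14e-07) for genotype in 3D, and the 3D libraries labelled Cxcl5-/- remained 0.66 ± 0.08 (SE, adjusted p = 1.67e-05) above 2D Cxcl5-/-. Among rescue samples Sqle was 437 and 418 in WT, 188 and 193 in Cxcl5-/-, 353, 318 and 290.2 in Hif1aOE and 301, 314 and 336 in MycOE Cxcl5-/- cells. Both overexpressing groups overlapped each other and lay between Cxcl5-/- and WT. The rises were 0.75 ± 0.10 (SE, adjusted p = 0.000107) with Hif1a and 0.73 ± 0.10 (SE, adjusted p = 9.67e-05) with Myc, and the direct test between them gave -0.01 ± 0.08 (SE, adjusted p = 0.954). Against WT the differences were -0.42 ± 0.09 and -0.43 ± 0.09 (SE), and these calls were lost without either WT sample for Hif1aOE (-0.38 and -0.43) and without WT replicate 1 for MycOE (-0.39).

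Fdft1, which makes squalene, and Lss, which closes the ring to lanosterol, followed. Fdft1 changed by 1.48 ± 0.08 (SE, adjusted p = 1.26e-08) with 3D culture in WT and by -1.12 ± 0.08 (SE, adjusted p = 1.84e-07) with genotype in 3D. Lss was 148 and 148 CPM in WT, 41.2 and 42.2 in Cxcl5-/-, 199.5, 146 and 158 in Hif1aOE and 84.5, 79.4 and 107 in MycOE Cxcl5-/- cells. Hif1aOE samples were around or above WT and MycOE samples all below, and MycOE against Hif1aOE gave -0.89 ± 0.13 (SE, adjusted p = 0.000586). In 3D, Lss had the second smallest fall of the 17 enzymes in the 3D libraries labelled Cxcl5-/-, -0.55 ± 0.08 (SE, adjusted p = 0.000113), which did not pass the test when libraries were scaled by their totals (-0.17).

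After lanosterol, Msmo1, the sterol C4-methyl oxidase, was 357, 343 and 358 CPM in 2D WT, 392, 366 and 368 in 2D Cxcl5-/-, 955, 835 and 944 in 3D WT and 415, 319.9 and 354 in the 3D libraries labelled Cxcl5-/-. Only the 3D WT samples stood apart, with log2 fold changes of 1.37 ± 0.10 (SE, adjusted p = 1.08e-07) over 2D WT and -1.33 ± 0.10 (SE, adjusted p = 1.81e-07) for the 3D libraries labelled Cxcl5-/- against them. Across the rescue groups it was 489.7 and 483 in WT, 138 and 146 in Cxcl5-/-, 611, 524 and 431 in Hif1aOE and 361, 355 and 381 in MycOE Cxcl5-/- cells. The Hif1aOE samples surrounded the WT values and the MycOE samples lay below them. Cxcl5-/- was lower than WT by -1.77 ± 0.14 (SE, adjusted p = 2.93e-06).

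Dhcr7, the reductase of the last step, was 24.3, 28.4 and 24.95 CPM in 2D WT, 54.9, 53.5 and 52.6 in 3D-cultured WT and 14.2, 24.7 and 22.6 in the 3D libraries labelled Cxcl5-/-. All 3D WT samples were above every other sample of the table, with log2 fold changes of 1.05 ± 0.16 (SE, adjusted p = 8.52e-05) and -1.39 ± 0.16 (SE, adjusted p = 9.55e-06). Across the rescue groups it was 34.2 and 30.3 in WT, 10.7 and 9.70 in Cxcl5-/-, 31.2, 28.2 and 28.8 in Hif1aOE and 16.03, 15.6 and 18.2 in MycOE Cxcl5-/- cells, and the 3 MycOE samples fell between Cxcl5-/- and the rest. The rise with Myc was 0.70 ± 0.11 (SE, adjusted p = 0.000339), which did not pass the test when libraries were scaled by their totals (0.37). Cyp51, the lanosterol demethylase, Nsdhl and Sc5d, a dehydrogenase and a desaturase of later steps, were called in the same direction as Msmo1 in both genotype comparisons in 3D and against Cxcl5-/- with either factor. Sc5d, whose E-box is printed above, rose least among them with Myc, 0.41 ± 0.10 (SE, adjusted p = 0.00577), a call that library totals removed (0.08).

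Of the post-lanosterol enzymes, Tm7sf2, Hsd17b7 and Ebp each departed from the rest in some comparisons. Tm7sf2, a sterol reductase, was 6.07, 4.82 and 5.21 CPM in 2D WT, 7.57, 9.23 and 8.83 in 2D Cxcl5-/-, 53.7, 42.6 and 48.5 in 3D WT and 40.5, 30.1 and 35.6 in the 3D libraries labelled Cxcl5-/-. Both 3D groups were far above both 2D groups, by 3.17 ± 0.14 (SE, adjusted p = 1.5e-09) in WT and 2.05 ± 0.14 (SE, adjusted p = 3.16e-08) in Cxcl5-/-, and in 2D the Cxcl5-/- samples exceeded WT by 0.67 ± 0.14 (SE, adjusted p = 0.00706). Its genotype difference in 3D was -0.45 ± 0.13 (SE, adjusted p = 0.012). That call was lost without the 3D library labelled Cxcl5-/- replicate 2 (-0.30) and with library totals (-0.07). In the rescue samples Tm7sf2 moved with the other enzymes, at 29.1 and 29.07 CPM in WT and 13.6 and 12.9 in Cxcl5-/-. It was 38.4, 37.9 and 33.8 in Hif1aOE and 23.4, 23.05 and 22.8 in MycOE Cxcl5-/- cells.

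Hsd17b7, a sterol ketoreductase, was 43.7, 42.8 and 42.9 CPM in 2D WT, 30.8, 33.7 and 31.6 in 2D Cxcl5-/-, 209.9, 179 and 213 in 3D WT and 83.3, 84.5 and 94.1 in the 3D libraries labelled Cxcl5-/-. The 4 groups did not overlap, and 3D exceeded 2D by 2.22 ± 0.09 (SE, adjusted p = 5.99e-10) in WT and 1.45 ± 0.09 (SE, adjusted p = 1.22e-08) in Cxcl5-/-. The small 2D genotype difference, -0.43 ± 0.08 (SE, adjusted p = 0.00603), was lost without 2D Cxcl5-/- replicate 3 (-0.39). Across the rescue groups Hsd17b7 was 87.2 and 88.9 in WT, 52.8 and 52.5 in Cxcl5-/-, 79.9, 57.7 and 61.4 in Hif1aOE and 25.6, 28.7 and 27.8 in MycOE Cxcl5-/- cells. The MycOE samples were the lowest of all, below even Cxcl5-/-. Hsd17b7 was the only enzyme called lower with Myc than in Cxcl5-/-, -0.94 ± 0.12 (SE, adjusted p = 8.63e-05), and was -1.28 ± 0.11 (SE, adjusted p = 1.42e-05) against Hif1aOE. With Hif1a the difference from Cxcl5-/- was 0.33 ± 0.12 (SE), not past the test (adjusted p = 0.058). The E-box in its window starts at position -143 from the gene start.

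Ebp, the sterol isomerase, was not called for culture or genotype in the 2D and 3D table except between the 3D libraries labelled Cxcl5-/- and 2D Cxcl5-/- (-0.50 ± 0.13 (SE, adjusted p = 0.00378)). Across the rescue groups it was 33.5 and 34.1 CPM in WT, 21.3 and 21.4 in Cxcl5-/-, 52.3, 57.2 and 46.96 in Hif1aOE and 53.3, 45.7 and 39.5 in MycOE Cxcl5-/- cells. Both overexpressing groups were above WT, by 0.63 ± 0.12 (SE, adjusted p = 0.00466) with Hif1a and 0.45 ± 0.12 (SE, adjusted p = 0.0193) with Myc. The second call was lost without either WT sample (0.44 and 0.47) or MycOE replicate 1 (0.32), and with DESeq2 size factors (0.32) or library totals (0.15).

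**Figure D3:**
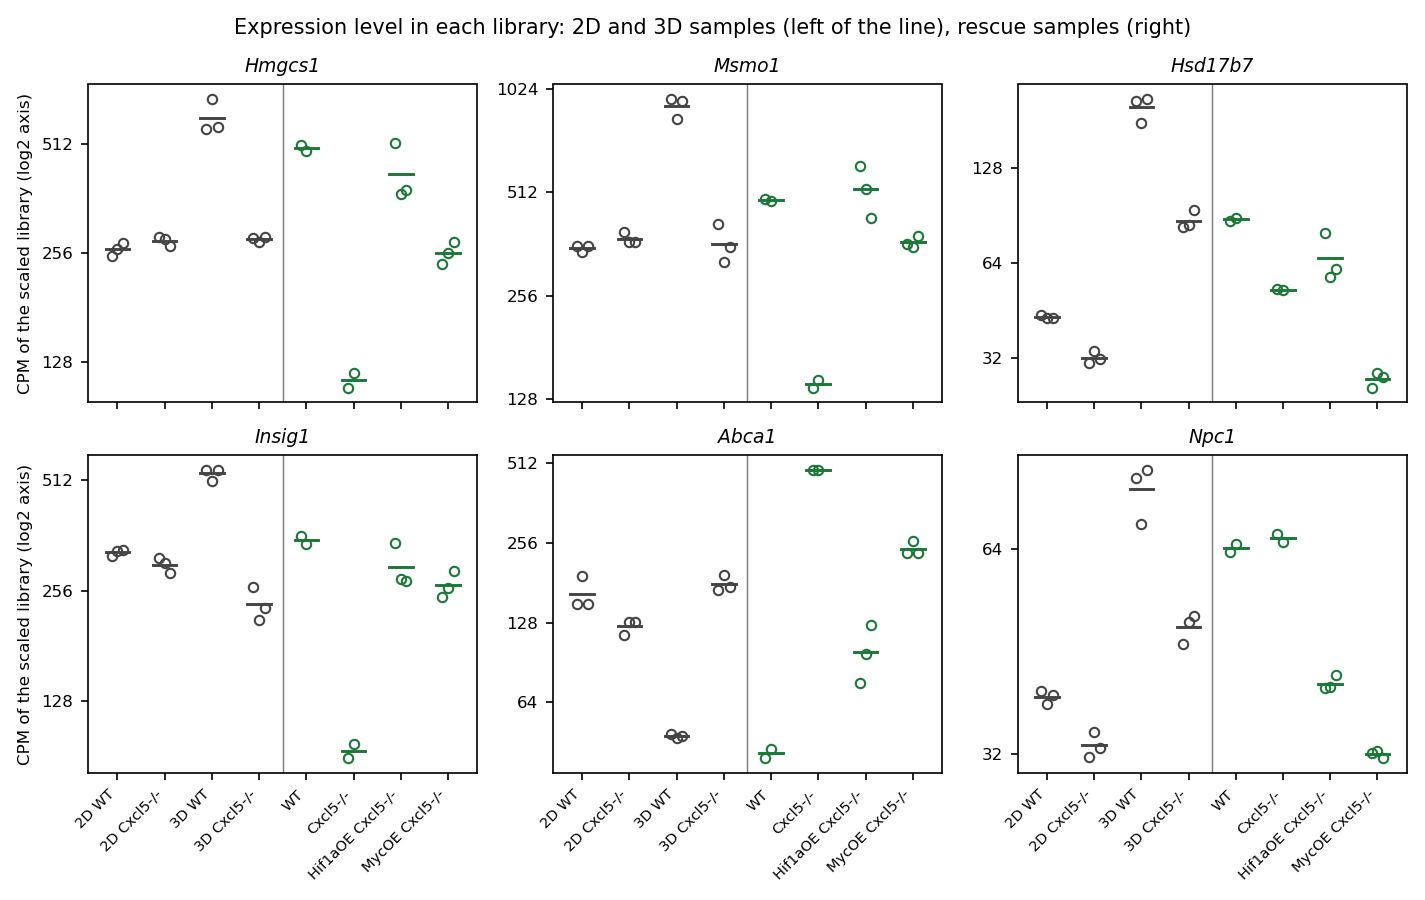
CPM of Hmgcs1, Msmo1, Hsd17b7, Insig1, Abca1 and Npc1 in each library of the 2D and 3D table and of the rescue table, on a log2 axis, with 1 point per library. Hmgcs1, Msmo1 and Insig1 share a pattern that is high in 3D WT and low in rescue Cxcl5-/-, Abca1 runs the opposite way (484 and 481 CPM in rescue Cxcl5-/-), and Hsd17b7 and Npc1 are lowest with Myc among the rescue samples.

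Among the genes of SREBP control, the INSIGs moved with the enzymes. Insig1, which retains SCAP and is itself a target of the SREBPs, was 318, 328 and 330.4 CPM in 2D WT, 314, 304 and 287 in 2D Cxcl5-/-, 548, 509.9 and 547 in 3D WT and 262, 214 and 230.2 in the 3D libraries labelled Cxcl5-/-. The last group was the lowest, below both 2D groups, with log2 fold changes of -1.19 ± 0.09 (SE, adjusted p = 1.61e-07) against 3D WT and -0.36 ± 0.09 (SE, adjusted p = 0.00259) against 2D Cxcl5-/-. Across the rescue groups Insig1 was 362 and 344 in WT, 89.2 and 97.9 in Cxcl5-/-, 345, 276 and 272 in Hif1aOE and 247, 259.7 and 289 in MycOE Cxcl5-/- cells. The overexpressing groups overlapped each other and all exceeded Cxcl5-/-, by 1.67 ± 0.12 (SE, adjusted p = 2.24e-06) and 1.503 ± 0.12 (SE, adjusted p = 2.8e-06), and the direct test between them gave -0.17 ± 0.10 (SE, adjusted p = 0.315).

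Insig2, a second retention protein, was 37.7, 41.3 and 38.9 CPM in 2D WT, 34.1, 29.04 and 30.6 in 2D Cxcl5-/-, 106, 117 and 105 in 3D WT and 47.5, 47.7 and 56.3 in the 3D libraries labelled Cxcl5-/-. It rose by 1.47 ± 0.09 (SE, adjusted p = 2.78e-08) with 3D culture in WT and was lower by genotype in 3D, -1.11 ± 0.09 (SE, adjusted p = 4.32e-07). In 2D the difference was -0.33 ± 0.09 (SE, adjusted p = 0.0404), a call lost on leaving out any of 8 libraries (-0.34 to -0.27), among them all 3 2D WT samples, 2D Cxcl5-/- replicates 2 and 3, 3D WT replicates 1 and 3 and the 3D library labelled Cxcl5-/- replicate 2. In the rescue table it was 67.6 and 71.5 in WT, 42.3 and 35.96 in Cxcl5-/-, 46.9, 45.7 and 43.4 in Hif1aOE and 43.8, 46.1 and 42.8 in MycOE Cxcl5-/- cells. Unlike Insig1, the overexpressing groups stayed near Cxcl5-/-. Against Cxcl5-/- the differences were 0.21 ± 0.09 and 0.18 ± 0.09 (SE), neither past the test (adjusted p = 0.0902 and 0.141), and against WT -0.62 ± 0.09 (SE, adjusted p = 0.000625) and -0.65 ± 0.09 (SE, adjusted p = 0.000241).

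The transcripts of the SREBPs themselves changed less. Srebf1 was 226, 200 and 233 CPM in 2D WT, 246, 247 and 229 in 2D Cxcl5-/-, 269, 189 and 234 in 3D WT and 203, 199 and 208 in the 3D libraries labelled Cxcl5-/-. The groups overlapped or lay close, and no comparison of that table passed the test, with 0.07 ± 0.11 (SE, adjusted p = 0.636) for culture and -0.18 ± 0.11 (SE, adjusted p = 0.198) for genotype in 3D. In the rescue table Srebf1 was 97.2 and 104 in WT, 119.8 and 128 in Cxcl5-/-, 142, 143 and 134 in Hif1aOE and 185, 168 and 157 in MycOE Cxcl5-/- cells, lowest in WT and highest with Myc, with no overlap between the groups. The difference of MycOE from WT was 0.76 ± 0.09 (SE, adjusted p = 0.000104). That of Cxcl5-/- from WT, 0.30 ± 0.10 (SE, adjusted p = 0.03), was lost without any of the 4 samples compared (0.24 to 0.36) and with DESeq2 size factors (0.20). The rise of MycOE over Cxcl5-/-, 0.46 ± 0.09 (SE, adjusted p = 0.00156), was lost with library totals (0.12).

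Srebf2, the SREBP gene most tied to cholesterol synthesis, was 85.2, 103 and 87.03 CPM in 2D WT, 67.1, 84.8 and 84.97 in 2D Cxcl5-/-, 171, 140 and 141 in 3D WT and 94.01, 176 and 144 in the 3D libraries labelled Cxcl5-/-. It was higher in 3D than in 2D in both genotypes, 0.71 ± 0.18 (SE, adjusted p = 0.00582) and 0.81 ± 0.18 (SE, adjusted p = 0.00192), the first lost with library totals (0.50). The 3D genotypes overlapped, with -0.12 ± 0.18 (SE, adjusted p = 0.612). In the rescue table it was 131 and 131 in WT, 114 and 114 in Cxcl5-/-, 122, 108 and 125 in Hif1aOE and 91.9, 100.3 and 99.4 in MycOE Cxcl5-/- cells, lowest with Myc, at -0.43 ± 0.08 (SE, adjusted p = 0.00242) against WT. Against Cxcl5-/- the MycOE difference, -0.23 ± 0.08 (SE, adjusted p = 0.0489), was lost on leaving out any of 8 of the 10 libraries, all but Hif1aOE replicates 2 and 3 (-0.24 to -0.18). Scap, the escort protein, was 44.04 and 42.5 in WT, 62.4 and 60.9 in Cxcl5-/- and 72.8, 63.7 and 59.3 in Hif1aOE rescue samples. Both of the latter were above WT, by 0.51 ± 0.11 (SE, adjusted p = 0.00373) and 0.59 ± 0.10 (SE, adjusted p = 0.00199), while in the 3D libraries labelled Cxcl5-/- the difference was 0.24 ± 0.12 (SE, adjusted p = 0.106).

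Of the LXR receptors, Nr1h3 ran against the enzymes with 3D culture in WT and with genotype in 3D, and Nr1h2 moved with them in both. Nr1h3 (LXRα) was 4.43, 5.41 and 4.85 CPM in 2D WT, 1.03, 1.52 and 1.59 in 3D-cultured WT and 7.73, 4.98 and 6.43 in the 3D libraries labelled Cxcl5-/-. The 3D WT samples were the lowest, with no overlap, at -1.83 ± 0.20 (SE, adjusted p = 6.61e-06) against 2D WT and 2.21 ± 0.21 (SE, adjusted p = 1.57e-06) for the 3D libraries labelled Cxcl5-/- against 3D WT. In the rescue table it was 3.73 and 2.5 in WT, 3.51 and 4.51 in Cxcl5-/- and 8.82, 6.002 and 7.05 in MycOE Cxcl5-/- cells, and WT and Cxcl5-/- overlapped (0.36 ± 0.26 (SE, adjusted p = 0.27)). All MycOE samples were above both, by 1.23 ± 0.24 (SE, adjusted p = 0.00293) against WT and 0.86 ± 0.24 (SE, adjusted p = 0.0127) against Cxcl5-/-. The last was lost without Cxcl5-/- replicate 1 (0.71) and with library totals (0.52). Nr1h2 (LXRβ) rose by 0.98 ± 0.12 (SE, adjusted p = 1.19e-05) in WT with 3D culture and was -0.54 ± 0.12 (SE, adjusted p = 0.0017) by genotype in 3D, a call lost with library totals (-0.15), and it was not called in any rescue comparison.

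Abca1, which loads cholesterol onto apolipoproteins and whose promoter is printed above with its E-box, was 150.3, 192 and 150.1 CPM in 2D WT, 115, 129 and 129 in 2D Cxcl5-/-, 48.8, 46.7 and 47.6 in 3D WT and 169.6, 193 and 175 in the 3D libraries labelled Cxcl5-/-. The 3D WT samples were the lowest of the table by a wide gap. The log2 fold change was -1.78 ± 0.10 (SE, adjusted p = 1.81e-08) for 3D against 2D in WT and 1.91 ± 0.10 (SE, adjusted p = 1.4e-08) for genotype in 3D. In 2D the genotype difference was of the other sign, -0.40 ± 0.10 (SE, adjusted p = 0.0287). That call was lost on leaving out any of 6 libraries, 2D WT replicate 2, any 2D Cxcl5-/- sample, 3D WT replicate 3 or the 3D library labelled Cxcl5-/- replicate 3 (-0.41 to -0.25), and with library totals (-0.38).

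In the rescue samples Abca1 was 39.3 and 42.8 CPM in WT, 484 and 481 in Cxcl5-/-, 75.9, 97.8 and 125 in Hif1aOE and 235, 261 and 235 in MycOE Cxcl5-/- cells. The 4 groups did not overlap, in the order WT, Hif1aOE, MycOE and Cxcl5-/-. Cxcl5-/- exceeded WT by 3.56 ± 0.19 (SE, adjusted p = 2.62e-07), 11.8-fold, and it was lower than in Cxcl5-/- with both factors, by -2.28 ± 0.16 (SE, adjusted p = 1.61e-06) with Hif1a and -0.99 ± 0.16 (SE, adjusted p = 0.000392) with Myc. Both overexpressing groups stayed above WT, by 1.28 ± 0.17 (SE, adjusted p = 0.000403) and 2.57 ± 0.18 (SE, adjusted p = 2.12e-06). Abca1 was called in 11 of the 14 comparisons, 7 times higher and 4 times lower.

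The LXR targets Abcg1 and Mylip were near the limit of detection. Abcg1, the exporter to HDL, had 0, 8 and 2 counts in 2D WT, 0, 0 and 0 in 2D Cxcl5-/-, 15, 3 and 12 in 3D WT and 20, 7 and 8 in the 3D libraries labelled Cxcl5-/-. In the rescue table it had 37 and 25 counts in WT, 0 and 3 in Cxcl5-/-, 11, 21 and 22 in Hif1aOE and 9, 3 and 5 in MycOE Cxcl5-/- cells. Taking 3 counts per library as the floor, it was at least 11-fold lower in rescue Cxcl5-/- than in WT (edgeR adjusted p = 0.0117). It was at least 4.02-fold higher in the 3D libraries labelled Cxcl5-/- than in 2D Cxcl5-/-. In that table it passed the count filter only through 3D libraries, so its call as higher in 3D, the second here, lends no support. The first call was lost without WT replicate 1 or Cxcl5-/- replicate 1 (fitted log2 fold change -4.05 and -3.43). Abca1 and Abcg1 thus differed from WT in opposite directions in rescue Cxcl5-/- cells. Mylip had 11 and 18 counts in rescue WT, 0 and 0 in Cxcl5-/-, 0, 0 and 4 in Hif1aOE and 4, 6 and 8 in MycOE Cxcl5-/- cells. By counts it was at least 5.15-fold lower in Cxcl5-/- than in WT. It passed the count filter only through the 2 WT samples, where it was highest. The direction of its call as lower in Cxcl5-/- was thus set in advance, and the call lends no support. That call was lost without any of the 4 samples compared (fitted -7.32 to -6.63). In the 21 samples of the other tables Mylip had at most 3 counts in a library.

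Of the transport genes, Stard4, which carries sterol between membranes, followed the enzymes. It was 72.6, 93.6 and 80.9 CPM in 2D WT, 59.3, 70.2 and 70.6 in 2D Cxcl5-/-, 177, 197 and 181 in 3D WT and 92.4, 116 and 114 in the 3D libraries labelled Cxcl5-/-, the 3D WT samples being highest without overlap. The log2 fold change was 1.17 ± 0.12 (SE, adjusted p = 2.5e-06) for culture in WT and -0.78 ± 0.12 (SE, adjusted p = 0.000104) for genotype in 3D, the second lost with library totals (-0.38). In rescue cells it was 133 and 140.1 in WT, 45.1 and 40.4 in Cxcl5-/-, 91.8, 64.3 and 74.9 in Hif1aOE and 96.5, 111 and 117 in MycOE Cxcl5-/- cells. Here the MycOE samples were above the Hif1aOE samples and nearer to WT. The rise over Cxcl5-/- was 0.85 ± 0.14 (SE, adjusted p = 0.000604) with Hif1a and 1.34 ± 0.14 (SE, adjusted p = 1.97e-05) with Myc. The direct test, 0.49 ± 0.12 (SE, adjusted p = 0.0154), was lost without Hif1aOE replicate 3, MycOE replicate 2 or MycOE replicate 3 (0.43 to 0.47) and with library totals (0.37).

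Npc1, which lets cholesterol out of the lysosome, was 39.5, 37.8 and 39.02 CPM in 2D WT, 81.5, 69.6 and 83.7 in 3D-cultured WT and 46.4, 49.98 and 51.1 in the 3D libraries labelled Cxcl5-/-, with 1.01 ± 0.08 (SE, adjusted p = 3.26e-07) for culture in WT and -0.67 ± 0.08 (SE, adjusted p = 1.74e-05) for genotype in 3D. In rescue cells it was 63.3 and 65.02 in WT, 67.4 and 65.6 in Cxcl5-/-, 39.9, 40.04 and 41.7 in Hif1aOE and 32.1, 32.3 and 31.5 in MycOE Cxcl5-/- cells. WT and Cxcl5-/- lay close together (0.05 ± 0.08 (SE, adjusted p = 0.613)), while both overexpressing groups lay below both, by -0.71 ± 0.07 (SE, adjusted p = 1.49e-05) and -1.06 ± 0.07 (SE, adjusted p = 7.52e-07) against Cxcl5-/-. Soat1, which esterifies cholesterol for storage, was 149.6, 159 and 147 CPM in 2D WT, 112, 102 and 106 in 2D Cxcl5-/-, 283, 240.3 and 284 in 3D WT and 233, 221 and 222 in the 3D libraries labelled Cxcl5-/-. It was higher in 3D than in 2D in both genotypes, 0.83 ± 0.08 (SE, adjusted p = 2.77e-06) and 1.08 ± 0.08 (SE, adjusted p = 1.53e-07), and 2D Cxcl5-/- was below 2D WT, -0.51 ± 0.08 (SE, adjusted p = 0.00163). Its 3D genotype difference, -0.26 ± 0.08 (SE, adjusted p = 0.0224), turned to 0.13 with library totals and was lost on leaving out any of 5 libraries, 2D Cxcl5-/- replicates 1 and 3, 3D WT replicates 1 and 3 and the 3D library labelled Cxcl5-/- replicate 2 (-0.24 to -0.19).

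**Figure D4:**
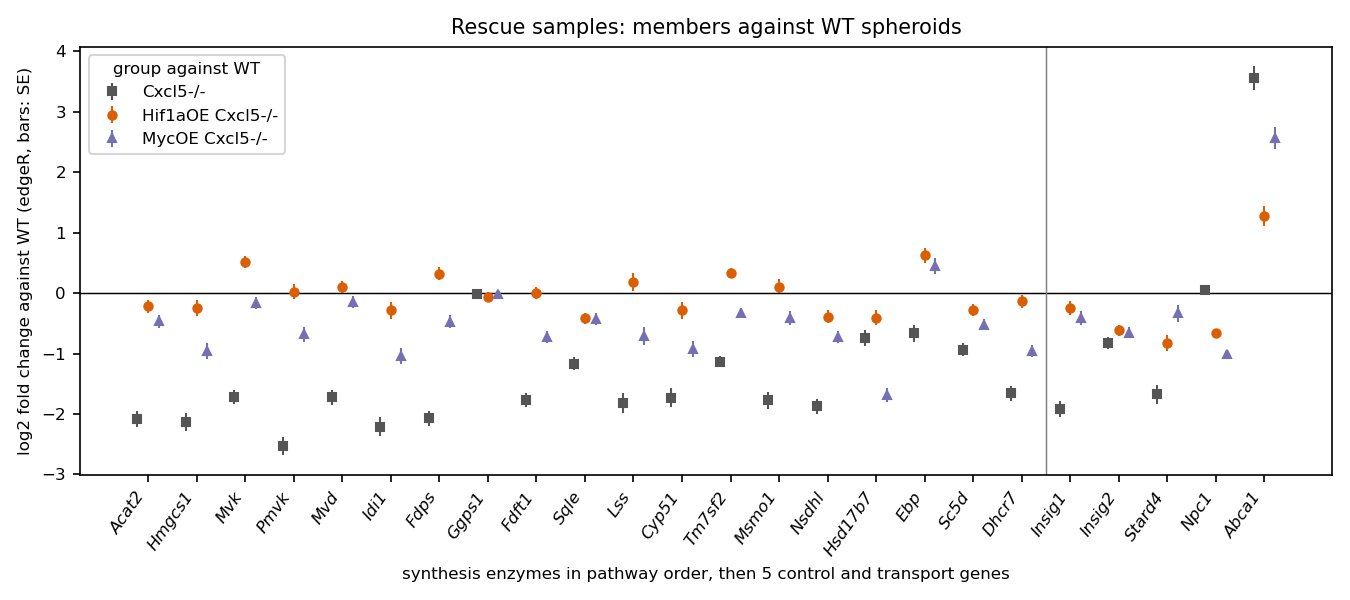
Log2 fold change against WT, with its SE as bars, of rescue Cxcl5-/-, Hif1aOE Cxcl5-/- and MycOE Cxcl5-/- cells for the 19 enzymes and Insig1, Insig2, Stard4, Npc1 and Abca1. Cxcl5-/- lies far below 0 for 18 enzymes, Hif1aOE scatters around 0 with a median of -0.06, MycOE lies between for most with a median of -0.52, and Hsd17b7 is lowest with Myc at -1.68.

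No member passed the test with conditioned media. By edgeR, 0 of the 31 members tested were called in any of the 3 comparisons, where 0.0156% of all genes were called higher in M1-CM against Ctrl and against M0-CM and 0% in M0-CM against Ctrl. At an unadjusted p under 0.05 by edgeR there were 2 members for M1-CM against Ctrl, 1 for M1-CM against M0-CM and 2 for M0-CM against Ctrl. Of all 19207 genes tested, 586 higher and 317 lower, 309 and 189, and 412 and 157 passed that limit in the same order. So a few members past it are no sign of a response of the list. The DESeq2 Wald test called 0 members. Enzyme medians were -0.07, -0.29 and 0.25, against 0.01, -0.01 and -0.00 over all genes. Hmgcs1 was 377, 543 and 366 CPM in Ctrl, 385, 635 and 376 in M0-CM and 481, 274 and 398 in M1-CM, and the groups overlapped. Idi1 (83.7, 140.1 and 95.3, then 87.1, 138 and 91.4, then 104, 63.4 and 93.6 in the same order), Sqle (385, 360.5 and 382, 413, 538 and 489 and 409, 316 and 422) and Msmo1 (419, 604 and 500.2, 440.4, 697 and 549 and 466, 353 and 509) also had their lowest value in M1-CM replicate 2.

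That library stood apart from the other 2 of its group and had the lowest total count of the table. In M1-CM, Insig1 was 388, 194 and 379.7 CPM, Srebf2 101, 311 and 115 and Abca1 92.6, 216 and 87.6, the second value of each being that library. Abca1 was 55.5, 83.6 and 56.2 in Ctrl and 54.1, 118 and 51.5 in M0-CM, so the M1-CM samples were all above Ctrl, at 1.02 ± 0.42 (SE, adjusted p = 0.965). Dhcr7 was 25.9, 17.6 and 13.7, 23.8, 25.7 and 19.3 and 22.1, 37.5 and 26.7 in Ctrl, M0-CM and M1-CM, and Stard4 139, 71.8 and 86.2, 118, 102 and 102 and 98.4, 148 and 108. Srebf1 was 239, 331 and 243, 282, 410 and 281 and 317, 289 and 314, and Insig2 94.4, 50.8 and 84.1, 97.1, 97.8 and 108 and 82.4, 108 and 121. Abcg1 had 0 to 77 counts in a library and Mylip 0. Leaving out M1-CM replicate 2, or any other library, also gave 0 members called. For comparison, Cxcl5 itself was 78.05, 117 and 107 CPM in Ctrl and 664, 719 and 662 in M1-CM.

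Genes next to the pathway were read from lists chosen by function. Of 12 genes of the isoprenoid branches, which make ubiquinone and dolichol and prenylate proteins, 1 was called higher and 8 lower in 3D WT against 2D WT (22.2% and 22% of all genes, list median -0.40). In each genotype comparison in 3D, 2 were called higher and 3 lower, close to the shares of all genes (19.7% and 25.3% for the 3D libraries labelled Cxcl5-/-, 17.6% and 24.3% for rescue Cxcl5-/-). Rabggta and Rabggtb, the geranylgeranyl transferase of Rab proteins, were lower in both, at -1.45 and -1.12 in the 3D libraries labelled Cxcl5-/- and -1.08 and -0.90 in rescue Cxcl5-/- cells (adjusted p = 2.64e-06, 1.94e-06, 3.66e-05 and 0.000116). Of 7 genes of SREBP processing, the proteases and ubiquitin ligases that act on SREBPs and INSIGs, 6 were called higher and 1 lower in rescue Cxcl5-/- against WT (17.6% and 24.3% of all genes), with a median of 0.43 against -0.30 over all genes. In the 3D libraries labelled Cxcl5-/- against 3D WT, 1 of the 7 was called higher and 1 lower (19.7% and 25.3%), with a median of -0.03. The site-1 protease gene Mbtps1 was higher by 0.91 ± 0.09 (SE, adjusted p = 1.49e-05) there and -0.03 ± 0.08 (SE, adjusted p = 0.805) in the 3D libraries labelled Cxcl5-/-.

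Of 14 further genes of sterol transport and esters, 7 were called higher and 2 lower in rescue Cxcl5-/- against WT (17.6% and 24.3% of all genes), and 5 higher and 5 lower in the 3D libraries labelled Cxcl5-/- against 3D WT (19.7% and 25.3%). Lipa, the lysosomal lipase that frees cholesterol from esters, was higher in both, by 2.16 ± 0.10 (SE, adjusted p = 1.02e-07) and 1.53 ± 0.09 (SE, adjusted p = 3.54e-08), as was Lrp1, a lipoprotein receptor, by 2.10 ± 0.18 (SE, adjusted p = 5.37e-06) and 1.26 ± 0.16 (SE, adjusted p = 2.15e-05). Tmem97, a sterol-regulated membrane protein, was lower in both, by -2.35 ± 0.14 (SE, adjusted p = 4.52e-07) and -1.53 ± 0.11 (SE, adjusted p = 1.65e-07), and so was Soat2, the second esterifying enzyme, by -1.71 ± 0.26 (SE, adjusted p = 0.000359) and -1.29 ± 0.20 (SE, adjusted p = 0.000139). Of 6 LXR partners and targets, 2 were called higher and 2 lower in rescue Cxcl5-/- and 1 each way in the 3D libraries labelled Cxcl5-/-, against the same shares of all genes. Arl4c, an LXR target, was lower in both, by -0.79 ± 0.08 (SE, adjusted p = 1.29e-05) and -0.78 ± 0.09 (SE, adjusted p = 1.05e-05). It was the lowest of the list in both. The list reached up to 2.21 in rescue Cxcl5-/- (median 0.05) and 1.72 in the 3D libraries labelled Cxcl5-/- (median 0.01).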

How the data were processed

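Gene counts were used as deposited. Per the labels and the study's methods, the authors prepared total RNA with a stranded TruSeq kit, sequenced read pairs on a NovaSeq, aligned them to GRCm38 (mm10 in the submitters' processing notes) with HISAT2 and counted with StringTie; versions and annotation release are not given in the sources used here. Samples were grouped by their labels; the rescue labels carry running cell line names, and the study names Panc02.

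edgeR 4.0.16 in R 4.3.3 fitted each table with all its groups (quasi-likelihood test, TMM, filterByExpr by group, Benjamini-Hochberg over all genes); SE is the log2 fold change over the square root of F. Alternatives included DESeq2 1.42.0. Tests were checked on simulated counts. Per-sample values are named for marker enzymes and regulators, and for up to 3 further members with the largest change in a comparison. Members and lists were chosen with earlier results of these data known. A floor of 3 counts bounds folds against groups at 0. Deviations of same-numbered samples had a mean r of 0.037, 0.025 and 0.004 in the 3 tables, and numbers were not used as pairs in the main fit. With conditioned media, single pairs ran from -0.236 to 0.359. There the share of counts in the 10 most abundant genes followed the number in part. In Ctrl, M0-CM and M1-CM it was 18.3, 18.1 and 18.5% for replicate 1 and 22, 23 and 22% for replicate 3. A fit with the number as a block was an alternative.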

Additional observations from a re-analysis of the deposited data

Results flagged for a closer look

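The genotype effect in 3D minus that in 2D passed edgeR's test at an adjusted p under 0.05 for 24 members. The enzymes were Msmo1 (log2 -1.418), Mvd (-1.346), Pmvk (-1.331), Fdps (-1.262), Idi1 (-1.236), Hmgcs1 (-1.183), Acat2 (-1.173), Fdft1 (-1.134), Tm7sf2 (-1.121), Cyp51 (-1.068), Mvk (-1.051), Sqle (-1.038), Nsdhl (-1.024), Dhcr7 (-1.009), Sc5d (-0.99), Hsd17b7 (-0.771) and Lss (-0.581). The control and transport genes were Insig1 (-1.076), Insig2 (-0.78), Nr1h2 (-0.536), Stard4 (-0.475), Npc1 (-0.433), Nr1h3 (2.131) and Abca1 (2.31). The 3D side of each difference rests on the 3D libraries labelled Cxcl5-/-, whose Cxcl5 RNA level was above that of 3D WT. With library totals the differences of Dhcr7, Lss, Insig2, Nr1h2, Npc1 and Stard4 did not pass, and those of Nr1h2 and Stard4 were also lost on leaving out 1 library: 2D Cxcl5-/- replicate 1 or the 3D library labelled Cxcl5-/- replicate 2 for Nr1h2 (-0.46 and -0.53), and any 2D Cxcl5-/- sample, 2D WT replicates 1 or 3 or 3D WT replicate 2 for Stard4 (-0.51 to -0.42).

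In a pair of genes, all Cxcl5-/- samples lay on one side of WT in the 3D samples of one table and on the other side in the rescue table. Npc1, which is also among the 24, was -0.67 in the 3D libraries labelled Cxcl5-/- against 3D WT and 0.051 in rescue Cxcl5-/- against WT, and the second value did not pass edgeR's test (adjusted p = 0.613), so no change was called there. Cxcl5 was 0.906 and -0.78. These differences between tables were not tested. With 2 or 3 samples per group, single samples were not tested for standing apart.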

How the results depend on the processing

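Of 231 calls of members, 225 held with DESeq2 size factors, 226 with the DESeq2 Wald test, 205 with library totals and 215 with no filter, 219 of 226 held with at least 10 counts in every sample, and 201 of 206 with only the groups compared. The only reversal among these was Soat1 in the 3D libraries labelled Cxcl5-/- against 3D WT, 0.134 with library totals. Replicate numbers were not used as pairs in the main fit. With the replicate block 227 calls held, and the counts of control and transport genes called became 8 for rescue Cxcl5-/- against WT (9 without), 5 for Hif1aOE against Cxcl5-/- (6) and 9 for MycOE against WT (10). Other counts of enzymes or control and transport genes called did not change with the block.

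Leaving out 1 library gave these counts, enzymes first and control and transport genes second: 17 to 17 and 9 to 10 for 3D WT against 2D WT, 16 to 19 and 7 to 9 for the 3D libraries labelled Cxcl5-/- against 3D WT, 1 to 3 and 1 to 3 for 2D Cxcl5-/- against 2D WT, 9 to 11 and 9 to 10 for the 3D libraries labelled Cxcl5-/- against 2D Cxcl5-/-, 17 to 19 and 5 to 7 for the interaction, 18 to 18 and 6 to 10 for rescue Cxcl5-/- against WT, 17 to 18 and 5 to 7 for Hif1aOE and 18 to 18 and 5 to 8 for MycOE against Cxcl5-/-, 2 to 10 and 5 to 7 for Hif1aOE and 11 to 16 and 6 to 10 for MycOE against WT, 12 to 15 and 3 to 7 for MycOE against Hif1aOE, and 0 to 0 for conditioned media. Where a rescue group was left with 1 sample, it was taken to vary like the other groups.

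With an absolute log2 fold change above 1 also required, enzymes called were 0 for 2D Cxcl5-/- against 2D WT, 2 for the 3D libraries labelled Cxcl5-/- against 2D Cxcl5-/-, 0 for Hif1aOE and 2 for MycOE against WT, and 1 for MycOE against Hif1aOE. Control and transport genes were 5 for 3D WT against 2D WT, 4 for the 3D libraries labelled Cxcl5-/- against 3D WT, 0 for 2D genotype, 2 for the 3D libraries labelled Cxcl5-/- against 2D Cxcl5-/-, 3 for the interaction, 5 for rescue Cxcl5-/- against WT, 3 for each factor against Cxcl5-/-, 1 for Hif1aOE and 4 for MycOE against WT, and 1 for MycOE against Hif1aOE. Library totals gave 1 control and transport gene for 2D genotype and 4 for the interaction (3 above 0), and no filter gave 4 for the interaction and 4 enzymes for Hif1aOE against WT, where the DESeq2 Wald test gave 11. Causes were not tested.

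Library totals also moved the split of all calls, higher then lower: 4752 and 4707 became 3563 and 6712 for 3D WT against 2D WT, 4218 and 5397 became 7671 and 2445 for the 3D libraries labelled Cxcl5-/- against 3D WT, 6139 and 6032 became 7039 and 4943 for them against 2D Cxcl5-/-, 2376 and 3431 became 4585 and 1359 for the interaction, 5904 and 4308 became 4335 and 5604 for Hif1aOE and 6205 and 5167 became 4271 and 7482 for MycOE against Cxcl5-/-, 4001 and 2961 became 2209 and 3587 for Hif1aOE and 4903 and 4225 became 2477 and 6217 for MycOE against WT, and 2742 and 2796 became 1982 and 3504 for MycOE against Hif1aOE. Depth limits only Mylip and Abcg1.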

Other observations

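The enzymes that make or break down oxysterols, the natural ligands of LXR, were called higher in 3D than in 2D WT for 3 of the 4 tested of 6 listed (median log2 fold change 1.61), and 0 lower, where 22.2% of all genes were called higher and 22% lower. Cyp27a1, the sterol 27-hydroxylase, was 0.539, 0.676 and 0.528 CPM in 2D WT, 4.42, 4.16 and 4.02 in 3D-cultured WT and 2.90, 2.18 and 3.19 in the 3D libraries labelled Cxcl5-/-. In the rescue samples it was 0.860 and 1.28 in WT, 2.28 and 3.02 in Cxcl5-/-, 1.63, 1.24 and 1.77 in Hif1aOE and 15.8, 13.1 and 12.4 in MycOE Cxcl5-/- cells. All MycOE samples stood far above the others, at 2.37 ± 0.24 (SE, adjusted p = 1.57e-05) against Cxcl5-/- by edgeR. The list did not follow Cyp27a1 there. Of its 5 genes tested in MycOE against Cxcl5-/-, 1 was called higher and 2 lower (21.6% and 18% of all genes), with a median of -0.49.

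In Hif1aOE against Cxcl5-/- cells, 7 of the 14 further transport and ester genes were called higher and 5 lower (20.5% and 15% of all genes), and in MycOE 6 higher and 7 lower (21.6% and 18%). Lipa, the lysosomal ester lipase, was -2.25 ± 0.09 (SE, adjusted p = 4.86e-08) with Hif1a and -1.77 ± 0.09 (SE, adjusted p = 1.12e-07) with Myc, Lrp1 -1.81 ± 0.16 (SE, adjusted p = 6.15e-06) and -2.28 ± 0.16 (SE, adjusted p = 9.88e-07), and Tmem97 2.01 ± 0.13 (SE, adjusted p = 1.05e-06) and 2.49 ± 0.13 (SE, adjusted p = 2.23e-07). Both comparisons share the Cxcl5-/- samples.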
